A study of Galdieria sulphuraria with 9 samples.

Results

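The genes described here were those of the red alga *Galdieria sulphuraria* whose transcripts shifted the same way at the later heat and at the later cold sampling of a temperature timeline, each relative to its earlier counterpart. Of 6538 genes counted, 5823 reached a mean of 10 CPM (counts of a gene per 1000000 counts of its library) in at least 1 sampling, and 33 of these met the rule. The rule took the mean of log2(CPM + 1) in each sampling. H-46 minus H-42 and C-28.2 minus C-28.1 had to be both 0.7 or more (30 rising genes) or both -0.7 or less (3 falling genes), and the mean of the cold samplings had to lie within 1 of the mean of the heat samplings. The genes were thus chosen by the values of all 4 samplings, and the differences between samplings are given as a description and support nothing.

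All libraries came from wild-type strain 074W, kept in light and shaken in 2xGS medium without an organic carbon source, with total RNA as the starting material. The timeline ran H-42 (2 weeks at 42 °C, cultures B and C), C-28.1 (48 h at 28 °C, cultures A, B and C), H-46 (48 h at 46 °C, cultures A and C) and C-28.2 (another 48 h at 28 °C, cultures A and C). The 9 libraries carried the letters of 3 separately grown cultures, each letter being taken for the same culture throughout, and only culture C was counted at every sampling. H-46 differed from H-42 in temperature, in time at that temperature, in place along the timeline and in holding culture A where H-42 held culture B, and C-28.2 differed from C-28.1 in place along the timeline, in the heat that came before it and in lacking culture B. These cannot be told apart. Library totals were between 4389066 and 8989387 counts and were lower in H-46 (4389066 to 4709730) than in H-42 (8309544 to 8989387), while those of C-28.2 (5261373 to 5396826) lay within the range of C-28.1 (4539163 to 8779063). With all libraries thinned to the smallest total, 32 genes were on the rising side of the rule, 24 of the 30 among them. CPM is a share of a library, so a change in RNA per cell or in the number of cells is not seen by it.

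*G. sulphuraria* is a unicellular extremophile that lives in hot, acidic springs and can grow either on light or on organic carbon. Moving such cells between warm and cold water changes membrane fluidity, protein folding and the rate of enzymes, and cells adjust transcripts for growth, transport and repair.

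A rise through the timeline was not the usual pattern among the 30 rising genes. The sampling means increased at every step, in the order sampled, in 9 of them (2.92% of the 5823 genes did so). In 14, the order from low to high was C-28.1, H-42, C-28.2, H-46, that is, each cold sampling lay below the heat sampling before it. In 4, C-28.1 was lowest, then H-42, then H-46, and C-28.2 highest. The other 3 had an order each of their own. A steady drift was thus seen in a minority of the genes, while the place of each later sampling over its earlier counterpart was fixed by the rule. The step from H-42 to C-28.1 had a median of -0.30 on the log2 scale (range -1.38 to 1.33, positive in 11 genes), the step from C-28.1 to H-46 a median of 1.21 (range -0.05 to 2.36, positive in 29), and the step from H-46 to C-28.2 a median of -0.03 (range -0.88 to 1.68, positive in 14). Over all 5823 genes these medians were -0.05, 0.19 and -0.11. The step from C-28.1 to H-46 equals the mean of both rule differences less cold minus heat. Its size and mostly its sign were thus set by the choice of genes, and it supports nothing.

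**Figure D1:**
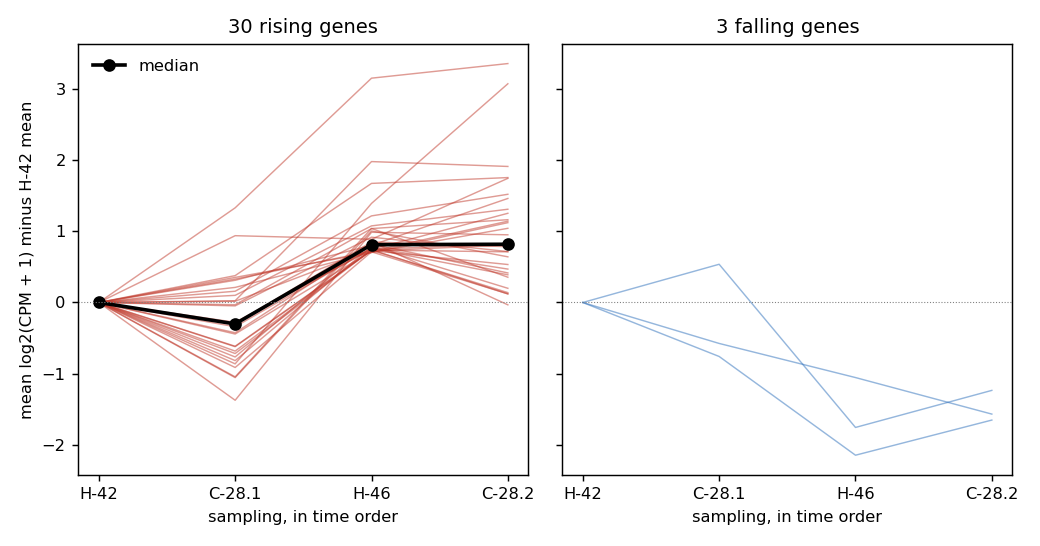
Mean log2(CPM + 1) of the members at each sampling, in time order on the x axis and relative to H-42 on the y axis, with 1 thin line a gene for the rising (left) and falling (right) genes and the median of the rising genes in black. Of the 30 rising lines 29 climb between C-28.1 and H-46, which the rule largely sets, and 9 climb at every step.

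The differences themselves were of modest size in most genes. H-46 minus H-42 was between 0.70 and 3.16 with a median of 0.81, and C-28.2 minus C-28.1 was between 0.73 and 3.94 with a median of 1.12. The cold pair had the larger difference in 23 of 30 genes, and in 63.13% of all 5823 genes. A difference of 0.7 or more was found in 262 genes between the heat samplings (4.5% of 5823) and in 852 genes between the cold samplings (14.6%), with 50 genes in both. The limit on cold against heat left out 20 of the 50, of which 18 were lower in cold. For -0.7 or less, the counts were 148 (2.54%), 544 (9.34%) and 5, of which 2 were left out. A further 72 genes passed 0.7 in opposite directions, 43 lower at H-46 and higher at C-28.2 and 29 the other way.

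The scaling of the libraries moved the number of members. Over all 5823 genes the median of H-46 minus H-42 was 0.15 with library totals and 0.02 with TMM-scaled sizes (edgeR's scaling factor for composition), and the median of C-28.2 minus C-28.1 was 0.05 and -0.01. With TMM-scaled sizes 14 of the 30 rising genes and all 3 falling genes still met the rule. Without the H-46 library of culture A, 15 of the 30 were kept. Gs24540, Gs44130 and Gs44470 met the rule under every alternative tried.

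**Figure D2:**
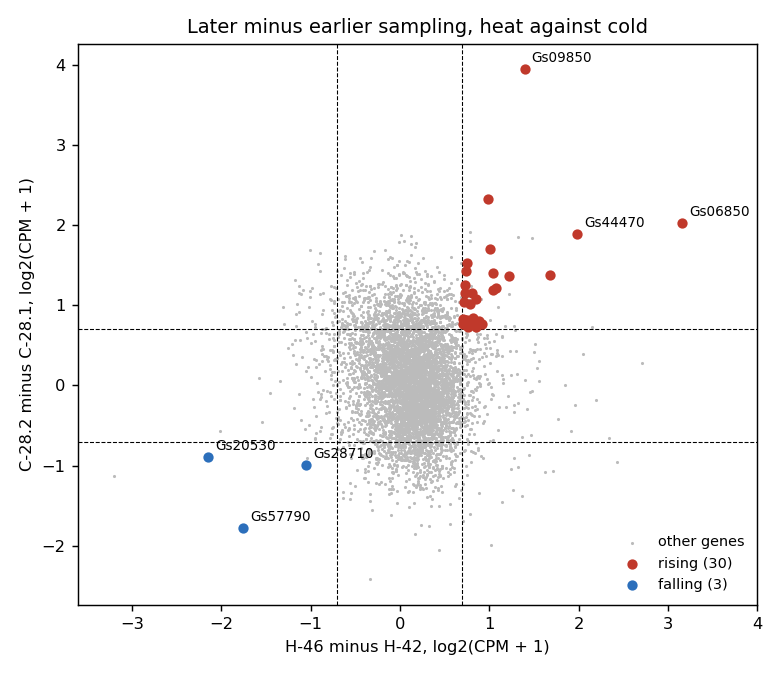
H-46 minus H-42 on the x axis against C-28.2 minus C-28.1 on the y axis, both in log2(CPM + 1), for the 5823 genes (grey), the rising genes and the falling genes, with the limits of 0.7 as lines. Gs06850 is farthest out in heat at 3.16 and Gs09850 farthest out in cold at 3.94, while many members sit close to the limits.

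In the following, values of H-42 are those of cultures B and C, values of C-28.1 those of A, B and C, and values of H-46 and C-28.2 those of A and C. Gs06850 had the largest H-46 minus H-42 difference of the members. It was at 6.45 and 3.73 CPM in H-42, 10.1, 15.9 and 16.7 in C-28.1, 60.6 and 44.6 in H-46, and 85.3 and 42.2 in C-28.2. Every later library was above every earlier one, and the lowest later value, 42.2 CPM, lay above the highest earlier value, 16.7 CPM. Gs44470, a hypothetical protein, was at 15.9 and 12.8 CPM in H-42, 10.8, 18.0 and 15.7 in C-28.1, 70.2 and 50.1 in H-46, and 65.8 and 48.5 in C-28.2. Its heat and cold levels were close to each other both early and late, with cold minus heat at -0.02. Gs24540 was at 20.8 and 17.3 CPM in H-42, 20.3, 26.9 and 28.6 in C-28.1, 64.3 and 61.6 in H-46, and 76.8 and 57.8 in C-28.2. Again the groups did not overlap.

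The abundant rising genes were Gs24700, Gs09850, Gs43440, Gs11990 and Gs51660. Gs24700 had the highest mean of the rising genes, 1137.1 CPM over the 9 libraries, with 899.7 and 585 CPM in H-42, 839.8, 576 and 739 in C-28.1, 2371 and 941 in H-46, and 1439 and 1844 in C-28.2. The H-46 library of culture C was only slightly above the highest early library, while that of culture A held the top value. Gs43440 was at 249.9 and 311 CPM in H-42, 201, 158 and 163 in C-28.1, 573 and 380.1 in H-46, and 375 and 245 in C-28.2, so that its C-28.2 library of culture C lay below both H-42 libraries. Gs11990 was at 90.7 and 92.3 CPM in H-42, 57.9, 52.9 and 67.4 in C-28.1, 131 and 176 in H-46, and 97.9 and 180.5 in C-28.2. Gs51660, a hypothetical protein, was at 61.1 and 56.6 CPM in H-42, 79.3, 74.8 and 68.6 in C-28.1, 97.5 and 97.9 in H-46, and 127 and 135 in C-28.2. Each sampling of Gs51660 was above the sampling before it, with no overlap between any of the 4.

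Gs09850 had the widest range of any member. It was at 571 and 175 CPM in H-42, 159, 337 and 97.5 in C-28.1, 1214 and 573 in H-46, and 5157 and 1396 in C-28.2, from 641 to 27134 counts. The C-28.2 library of culture A was the highest, and the H-46 library of culture C was barely above the H-42 library of culture B, at 573 against 571 CPM. The 33 members together held between 0.288% and 0.864% of the counts of a library, and the share was highest in that same library.

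**Figure D3:**
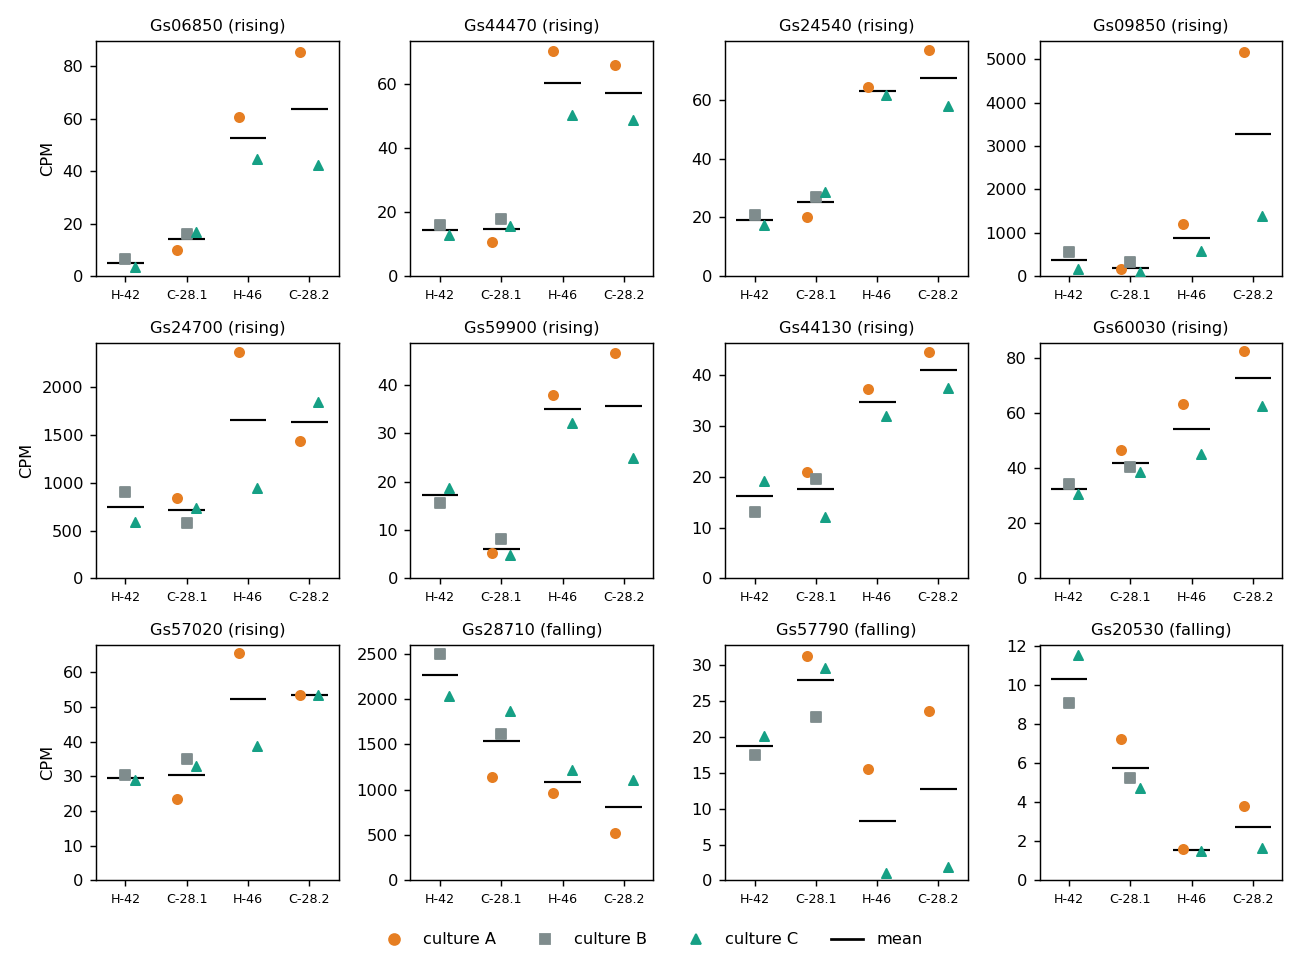
CPM of 12 members in each of the 9 libraries, by sampling in time order on the x axis, with symbols for cultures A, B and C and a bar for the sampling mean. The later symbols of Gs06850, Gs44470 and Gs24540 all lie above the earlier ones, Gs09850 reaches 5157 CPM in C-28.2 of culture A, and Gs57790 drops to 1.06 and 1.85 CPM in the later libraries of culture C.

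Only 3 members had a named product in the study's supplementary tables, which list spliced introns and genes that differed between heat and cold. With hypothetical proteins included, these hold a product entry for 1164 genes, 8 of the members among them. Dolichyldiphosphatase (Gs44130) recycles the lipid carrier on which sugar chains for glycoproteins are built in the endoplasmic reticulum. It was at 13.1 and 19.1 CPM in H-42, 20.9, 19.5 and 12.2 in C-28.1, 37.4 and 32.1 in H-46, and 44.7 and 37.4 in C-28.2. The later libraries were all above the earlier ones. Spermidine synthase (Gs60030) makes the polyamine spermidine from putrescine, and it was at 34.4 and 30.7 CPM in H-42, 46.5, 40.6 and 38.6 in C-28.1, 63.3 and 45.2 in H-46, and 82.7 and 62.6 in C-28.2. Its H-46 library of culture C, at 45.2 CPM, was below the highest C-28.1 library, at 46.5 CPM, so later and earlier libraries overlapped across temperatures. The rhomboid family protein (Gs57020) belongs to a family that includes proteases cutting within membranes. It was at 30.4 and 28.9 CPM in H-42, 23.4, 35.1 and 32.9 in C-28.1, 65.6 and 38.6 in H-46, and 53.4 and 53.4 in C-28.2, again with every later library above every earlier one. Neither Gs60030 nor Gs57020 met the rule with TMM-scaled sizes, with a pseudocount of 5 or in culture C alone. Both also failed it without the H-46 library of culture A, while Gs44130 met it under every alternative tried.

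Product names were too few to show a theme. Of the members, 5 were hypothetical proteins and 25 (22 rising and the 3 falling) had no entry. None of 13 lists by product name, among them photosynthesis, transporters, the ribosome, chaperones, protein turnover, lipids and carbohydrates, held a member, but only the 3 named members could have matched one. Dolichol and protein glycosylation terms matched 15 genes, Gs44130 included, a list chosen after the members were known. Between the heat samplings 0 of the 15 passed the edgeR test at an adjusted p of 0.05 (0.255% of all 6264 genes tested did), where 1 had an unadjusted p below 0.05 and DESeq2 called 0. Between the cold samplings 3 were higher in C-28.2 (7.76% of all genes tested were) and 0 lower, where 7 had an unadjusted p below 0.05 and DESeq2 called 4. Over all genes, 534 of 6264 had an unadjusted p below 0.05 in heat and 2226 of 6264 in cold. DESeq2 called 1.31% of genes in heat and 23.3% in cold. The list was chosen because of a member that it holds, so nothing is read from it. The 15 had a median difference of 0.27 in heat and 0.50 in cold, beside 0.15 and 0.05 over all genes. Of the 3, Gs44130 was a member, and Gs42280 (alpha-1,2-mannosyltransferase) and Gs08790 (named alpha-1,4-N-acetylglucosaminyltransferase EXTL3) had cold differences of 0.70 and 1.09. The other rhomboid gene with a name, Gs20830, had differences of 0.25 in heat and 0.60 in cold and was called in neither by edgeR or by DESeq2, though its unadjusted p was below 0.05 in cold. No other gene matched the polyamine search terms, which did not cover diamine N-acetyltransferase, a name the study also gives.

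The members were mostly of low abundance. The mean over the 9 libraries had a median of 26.3 CPM over the 33 members (range 5.16 to 1440.4), against 70.87 CPM for all genes, and it was below 30 in 18 of the 33. In 10 members the lowest library held fewer than 30 counts, and the lowest values were 5 counts for Gs57790 among the falling genes and 11 counts for Gs11090 among the rising genes. Gs11090 was at 4.56 and 3.25 CPM in H-42, 2.42, 6.04 and 5.63 in C-28.1, 14.6 and 7.22 in H-46, and 14.6 and 11.5 in C-28.2, with the later libraries all above the earlier. Matched by locus tag number to the RefSeq annotation of assembly ASM34128v1, all 33 members had a place in the gene order. None was next to another member and none overlapped its neighbours there. How often other sets of 33 genes hold neighbours was not counted, so nothing is read from this. The neighbours of rising genes included 52 genes that passed the 10 CPM limit. Both differences were positive in 21 of these 52 (in 32.7% of all 5823 genes), and their medians were 0.24 in heat and 0.01 in cold.

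Separation between libraries could be counted without a model, though the rule used the same contrasts. In 20 of the 30 genes all 4 later libraries were above all 5 earlier ones, a pattern shown by 2.82% of the 5823 genes. Within heat and within cold taken apart, the later libraries were above the earlier in 28 genes (8.88% of all). The exceptions, picked out for that after their values were seen, were Gs09170 in heat and Gs32850 in cold. Gs09170 was at 21.4 and 6.79 CPM in H-46, against 7.68 and 5.17 CPM in H-42. In culture C alone, H-46 minus H-42 was positive in all 30 genes, with a median of 0.68 and 0.7 or more in 14, and C-28.2 minus C-28.1 was positive in all 30, with a median of 1.23 and 0.7 or more in 24. In culture A, C-28.2 minus C-28.1 had a median of 0.88 and was positive in 29. Over all genes the same culture C medians were 0.05 and -0.05, and that of culture A was 0.14. These libraries entered the sampling means that the rule used. The signs and medians within a culture were thus largely set by the choice of genes and support nothing. With the rule applied to culture C alone, 38 genes were on the rising side, 13 of the 30 among them.

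In the edgeR quasi-likelihood fit over all 9 libraries, 3 of the 30 rising genes were called higher in H-46 than in H-42, namely Gs06850, Gs24540 and Gs44470 (0.176% of 6264 genes were called higher). In C-28.2 against C-28.1, 21 were called higher (7.76% were called higher). Without the C-28.1 library of culture C, 0 rising genes were called in cold, and without either H-42 library 0 were called in heat, but in each of these fits 0 of all genes were called. At an unadjusted p below 0.05 these fits held 1618 genes in cold without that C-28.1 library, and 225 and 241 genes in heat without H-42 of cultures B and C. Since the rule used both contrasts, these counts describe the choice of genes.

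The rising genes were sorted by cold minus heat, with a cut of 0.5 set for description. The values ran from -0.87 to 0.90 within the rule's limit of 1, and the cut does not mark separate kinds. For 8 genes the mean of the cold samplings was more than 0.5 below that of the heat samplings, for 2 it was more than 0.5 above, and for 20 it was within 0.5. Gs26580, a hypothetical protein, was among the 8, with 23.2 and 28.0 CPM in H-42, 13.9, 9.23 and 12.6 in C-28.1, 52.9 and 51.8 in H-46, and 24.7 and 65.8 in C-28.2. Each C-28.1 library was below each H-42 library, and the C-28.2 libraries of cultures A and C lay on either side of both H-46 libraries. Gs59900 was at 15.7 and 18.7 CPM in H-42, 5.29, 8.20 and 4.87 in C-28.1, 38.0 and 32.1 in H-46, and 46.6 and 24.8 in C-28.2. Gs51080 was at 7.23 and 8.79 CPM in H-42, 3.97, 3.42 and 2.74 in C-28.1, 17.8 and 17.2 in H-46, and 6.46 and 16.7 in C-28.2. In these genes C-28.1 held the lowest values, and in Gs51080 the C-28.2 library of culture A was below both H-42 libraries.

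Cold was above heat by any amount in 13 rising genes. Those higher in cold by more than the cut were Gs06850 and Gs21620, named here for that after their values were seen. Gs21620 was at 1.89 and 2.77 CPM in H-42, 5.95, 4.78 and 5.32 in C-28.1, 4.56 and 5.73 in H-46, and 8.55 and 11.9 in C-28.2. Its first cold sampling lay over or among the values of the heat sampling that followed it, and the values are low, from 17 counts upward. In C-28.1 against H-42, 9 of the 33 members were called (41.9% of 6264 genes were), with Gs06850 and Gs21620 higher and 7 lower, Gs04490, Gs24920, Gs26580, Gs41790, Gs43440, Gs51080 and Gs59900. In C-28.2 against H-46, 3 were called (32.8% of genes were, 17.2% higher and 15.6% lower), Gs21620, Gs51660 and Gs61520, all higher, and 5 with culture as a block (39.2% of genes were). Without the H-42 library of culture C, 1 member was called in C-28.1 against H-42 (17.2% of genes were). Without the C-28.1 library of culture A or of culture C, 1 was called in C-28.2 against H-46 (1879 of 6271 and 1757 of 6259 genes were). The limit on cold against heat favours genes with small shifts, so nothing is read from shares below the background. Gs61520, a hypothetical protein, was at 24.1 and 23.1 CPM in H-42, 28.6, 28.14 and 32.1 in C-28.1, 41.0 and 43.1 in H-46, and 60.4 and 74.1 in C-28.2, with no overlap between samplings.

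The falling genes were 3, none with a product name. Gs28710 was the only one whose sampling means were lower at every step (0.756% of the 5823 genes did so). It was at 2495 and 2034 CPM in H-42, 1137, 1617 and 1874 in C-28.1, 963 and 1217 in H-46, and 518 and 1109 in C-28.2. Its later libraries were below its earlier ones within heat and within cold (2.58% of the 5823 genes), as were those of Gs20530, but its H-46 library of culture C was above the lowest C-28.1 library. Gs20530 was at 9.12 and 11.6 CPM in H-42, 7.27, 5.24 and 4.71 in C-28.1, 1.59 and 1.49 in H-46, and 3.80 and 1.67 in C-28.2, from 7 to 96 counts. Its later libraries were all below its earlier ones, which 0.55% of the 5823 genes showed, and it was the 1 falling gene called lower in H-46 than in H-42 (0.0798% of genes were called lower). That call was lost with DESeq2, at an adjusted p of 0.01 with a 2.5-fold change, and without either H-42 library, any C-28.1 library or the H-46 library of culture A. In C-28.2 against C-28.1, 0 falling genes were called lower by edgeR (7.97% of genes were). At an unadjusted p below 0.05 there were 2, DESeq2 called 1, and edgeR with culture as a block called all 3 (13.2% of genes were).

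Gs57790 was lower at the later samplings in culture C and less so in culture A. In culture C it held 167 counts (20.1 CPM) in H-42, 195 (29.7 CPM) in C-28.1, 5 (1.06 CPM) in H-46 and 10 (1.85 CPM) in C-28.2. In culture A it held 142 counts (31.3 CPM) in C-28.1, 68 (15.5 CPM) in H-46 and 124 (23.6 CPM) in C-28.2. Culture B was at 17.5 CPM in H-42 and 22.8 CPM in C-28.1. It did not meet the rule without either later library of culture C, nor without the H-46 library of culture A, and C-28.2 minus C-28.1 was -0.39 in culture A and -3.43 in culture C.

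**Figure D4:**
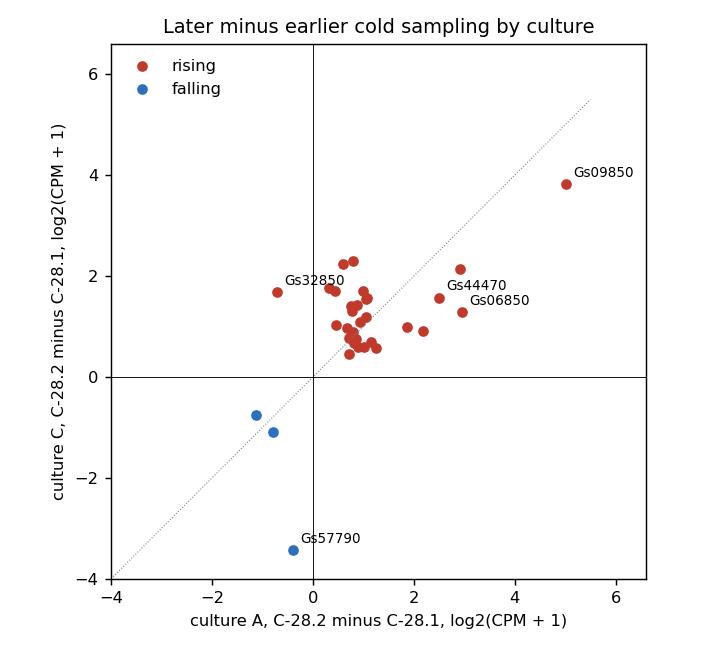
C-28.2 minus C-28.1 in culture A on the x axis against culture C on the y axis, in log2(CPM + 1), for the rising and falling genes, with the line of equal values dotted. Of the rising genes, 29 are above 0 in both cultures and Gs32850 is below 0 in culture A only, while Gs57790 lies at -0.39 in culture A and -3.43 in culture C.

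Cultures A and C, which share 3 samplings, were compared with edgeR in a fit over all 9 libraries with sampling and culture as terms. H-42 and culture B thus also entered the estimate and the spread. This comparison is not independent of the choice of genes, since H-46 held culture A where H-42 held culture B and a gene high in culture A could enter the rising set more easily, so it is given as a description. Gs09850 was called higher in culture A than in culture C, the only one of the 33 members (0.942% of 6264 genes were called higher, 2.59% lower and 3.53% in all). Its log2 difference was 1.10, and culture A was above culture C in 3 of 3 samplings, at 159 against 97.5 CPM in C-28.1, 1214 against 573 CPM in H-46 and 5157 against 1396 CPM in C-28.2. The difference was between 0.80 and 1.34 over the alternatives. The call was lost when any 1 of the 4 libraries of H-46 or C-28.2 was left out, where at most 8 genes in all were called. For Gs57790, which was not called in this fit, the difference was 1.77, with culture A above culture C in 3 of 3 samplings. Over the 14 settings tried, some of which leave a sampling with 1 library, its difference was between 1.04 and 3.58. Gs57790 was called in 6 of these settings, Gs09850 in 9, Gs28710 and Gs46180 in 3 each and Gs11990 in 2. The share of all genes called moved as well, and was 9.04% with DESeq2. Without the C-28.1 library of culture A, B or C it was 23.8%, 2.86% and 18.6%. All calls rest on the spread between these few cultures.

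The limit of 0.7 was not a gap in the data. Just inside it were Gs60030 (0.70 in heat and 0.77 in cold) and Gs03150 (0.70 and 0.83). Just outside were Gs35200 (0.69 and 1.23) and Gs22080 (0.69 and 0.83), Gs22080 being named sterol-4alpha-carboxylate 3-dehydrogenase, an enzyme of sterol synthesis. Gs22080 was at 667 and 598 CPM in H-42, 475, 377 and 393 in C-28.1, 1313 and 790.1 in H-46, and 735 and 733 in C-28.2. Among the falling genes, Gs20530 and Gs28710 were nearest inside, and Gs03010 (-0.69 and -0.80) and Gs00260 (-0.67 and -0.67) nearest outside.

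**Figure D5:**
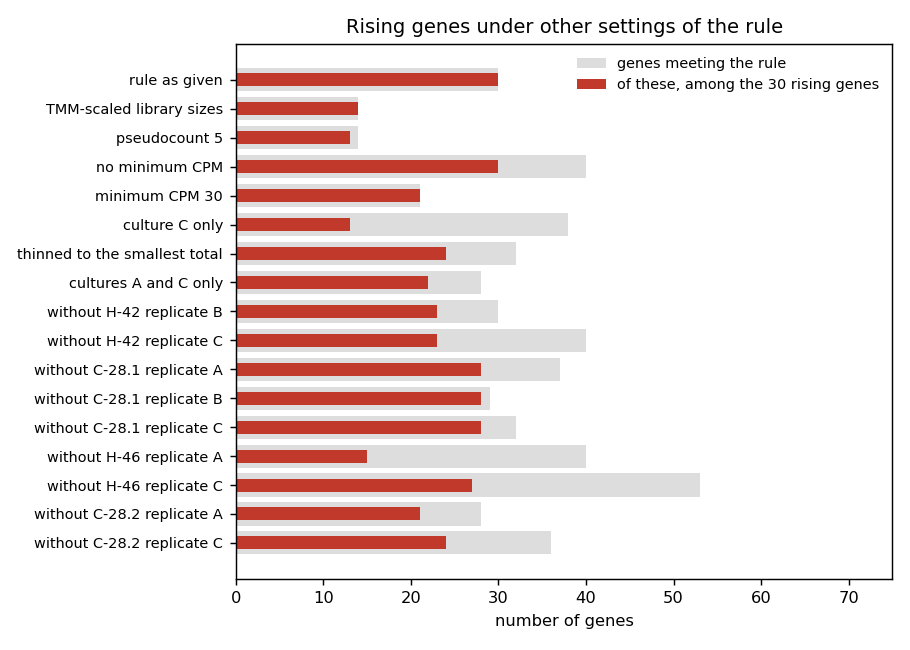
Number of genes on the rising side of the rule under each setting (grey bars; x axis, number of genes), and how many of these were among the 30 rising genes (red bars). The rising count is 14 with TMM-scaled sizes and with a pseudocount of 5, and 53 without the H-46 library of culture C.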

How the data were processed

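RNA of 9 samples from 3 cultures was sequenced as paired reads (TruSeq, Illumina HiSeq2000). The authors deposited raw read counts for 6538 genes per library, as whole numbers without normalization. The study describes trimming with Trimmomatic, mapping with STAR and removal of multiply mapped reads for its splicing analysis. The annotation and strand setting of the counts are not given in the sources used here, so reads of near-identical or antisense genes cannot be assigned with certainty. Groups came from the sample labels.

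CPM used library totals. The test was edgeR 4.0.16 quasi-likelihood (limma 3.58.1, R 4.3.3) with TMM, 4 samplings in one model and filterByExpr, which kept 6264 genes, with Benjamini-Hochberg adjustment and a threshold of 0.05. Python 3.11.15 with pandas 2.3.3 and matplotlib 3.10.9 applied the rule. Scripts were tested on simulated data. Counting error limits genes with few counts, and the spread between cultures the others.

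Alternatives were DESeq2 1.42.0, RLE factors, no filter, a stricter call, culture as a block, other scalings, pseudocounts and CPM limits, thinning, and leaving out each library. The study moved its cultures through the samplings, and equal letters were taken to name the same culture, which the labels do not spell out. Deviations from the sampling means correlated at 0.06 to 0.60 in 10 same-letter pairs (median 0.19), and 3 of the 10 were below 0.1. With 2 libraries in a sampling the deviations mirror each other, so these pairs are not independent.

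Members, lists and tests were chosen with earlier results of these data known. Genes were named by rule in each direction: the 10 with the largest smaller difference, the 5 most abundant, and the 2 nearest each side of the limit. Genes outside it are the product-named members, the genes called and those said to be named for their values. Gene numbers match RefSeq locus tags for 6510 genes, and in 322 of 322 hypothetical product names carrying a tag the number was the same.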

Additional observations from a re-analysis of the deposited data

Results flagged for a closer look

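Gs32850, a rising gene without a product name, differed in direction between cultures in the cold pair. C-28.2 minus C-28.1 was -0.71 in culture A (5.13 CPM in C-28.2, against 9.03 CPM in C-28.1) and 1.68 in culture C (11.5 CPM in C-28.2, against 2.89 CPM in C-28.1), on the log2(CPM + 1) scale with 1 library for each value. The difference between the cultures was not tested, and the gene is low in all libraries, with 19 counts in the lowest.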

How the results depend on the processing

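The 30 rising genes became 14 with TMM-scaled library sizes and 14 with a pseudocount of 5, and the 3 falling genes became 7 with TMM-scaled sizes, 1 with a minimum of 30 CPM, 28 in culture C alone and 5 in cultures A and C alone, an alternative chosen after seeing the data. Leaving out 1 library gave 28 to 53 rising genes (53 without H-46 of culture C) and 3 to 10 falling genes (5 without H-42 of culture B, 6 without H-46 of culture C and 10 without H-46 of culture A). Of the 33 members, 6 met the rule without any 1 library. What caused the shifts was not tested.

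At a stricter call (adjusted p of 0.01, fold 2.5) the members called were 1 rising and 0 falling in H-46 against H-42 (all genes: 2 higher and 1 lower), 0 rising in C-28.2 against C-28.1 (all genes: 1 higher), 2 in C-28.1 against H-42 (735 of all genes), 0 in C-28.2 against H-46 (637) and 0 between cultures A and C (8). With DESeq2, 0 falling genes were called lower in heat (40 of all genes), 1 lower in cold (791), and 4 members differed between cultures (550 of all genes, 9.04%). With culture as a replicate block, 3 falling genes were called lower in C-28.2 against C-28.1, where the unblocked edgeR fit called 0, and 5 members in C-28.2 against H-46, where it called 3. The block gave 23 rising genes in place of 21 in C-28.2 against C-28.1, and 10 members in place of 9 in C-28.1 against H-42. Over all genes it raised the calls in C-28.2 against C-28.1 from 985 to 1608, and in C-28.2 against H-46 from 2056 to 2456.

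Leaving out 1 library gave 0 to 6 rising and 0 to 1 falling calls in H-46 against H-42, and the calls of all genes moved with them, at 180 higher without H-46 of culture C (6 rising) and 2 to 3 higher without H-46 of culture A or C-28.1 of culture B or C (1 rising each). In C-28.2 against C-28.1 it gave 0 to 27 rising and 0 to 2 falling calls, with 5 rising without C-28.2 of culture C (21 of all genes higher), 7 and 9 without C-28.1 of cultures B and A (59 and 121 higher), and 2 falling without C-28.2 of culture A (635 lower). It gave 1 to 11 in C-28.1 against H-42, 1 to 4 in C-28.2 against H-46, and 0 to 5 between cultures, where 5 were called without C-28.1 of culture A (23.8% of all genes) or C (18.6%). Nothing about the members is read from these counts. Where a sampling is left with 1 library, that library is assumed to vary like the others. Depth limits the genes with few counts.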
